A study of Mus musculus with 6 samples.

Results

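The major histocompatibility complex (MHC) class I genes described here are 10 genes chosen by symbol: the heavy chains H2-K1, H2-D1, H2-T23, H2-Q4, H2-Q6 and H2-Q7, the light chain B2m, the peptide transporter subunits Tap1 and Tap2, and the transactivator Nlrc5. They are 10 of the 54532 Ensembl gene identifiers in the files, and all 10 were among the 21369 genes that could be tested. The series sequenced RNA from cervical spinal cords of 3 mice with allergic contact dermatitis (ACD) and of 3 control mice, all C57BL/6. In the ACD mice the contact allergen squaric acid dibutylester (SADBE) was painted on the shaved abdomen as 20 µl of a 1% solution in acetone on 3 days, and 5 days later the same dose was painted on the shaved nape on 3 days. The control mice received acetone on the nape, and the labels leave unclear whether their abdomen had been painted with SADBE. No transgene or genetic alteration is named for either group. The 3 libraries of a group are labelled as biological replicates and the design names 6 mice, so 1 library was taken as 1 mouse.

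A class I molecule is a heavy chain that spans the membrane, bound to beta-2-microglobulin, the product of B2m, with a peptide in its groove. Peptides made by the proteasome are pumped into the endoplasmic reticulum by the TAP transporter, loaded onto the heavy chain with the help of tapasin and chaperones, and shown at the cell surface to CD8 T cells and natural killer cells. Interferons raise transcription of these genes, and NLRC5 drives it by joining factors that sit on a conserved promoter module. In the resting nervous system class I levels are low in neurons and higher in endothelium and microglia.

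The promoters of these genes share short elements that the family is known for, and 5 of them are shown because they hold the same 3 elements before genes of different roles. The sequences are from RefSeq on GRCm38.p6, which has an entry for 8 of the 10 genes, with none for Tap2 and Nlrc5. Each is read 5′ to 3′ on the strand of its gene. Capitals mark a kB element, an interferon element, and the letters TGAC and ATTGG of the module on which the NLRC5-bound complex assembles.
H2-K1: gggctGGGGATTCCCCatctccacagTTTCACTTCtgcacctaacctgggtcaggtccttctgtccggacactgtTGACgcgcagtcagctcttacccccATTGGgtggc
H2-Q4: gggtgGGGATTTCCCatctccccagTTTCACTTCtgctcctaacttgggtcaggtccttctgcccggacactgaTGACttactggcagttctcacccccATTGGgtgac
H2-Q6: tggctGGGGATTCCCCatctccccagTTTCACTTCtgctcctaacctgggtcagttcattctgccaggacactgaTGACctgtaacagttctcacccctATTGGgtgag
H2-Q7: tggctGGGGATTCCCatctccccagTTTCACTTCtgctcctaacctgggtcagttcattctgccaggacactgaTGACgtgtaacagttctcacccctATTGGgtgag
B2m: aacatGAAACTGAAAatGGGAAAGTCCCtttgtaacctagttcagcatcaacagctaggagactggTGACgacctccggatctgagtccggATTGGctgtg

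The H2-K1 stretch lies at chr17:34000354-34000463 on the minus strand. On the plus strand are those of H2-Q4 at chr17:35379439-35379547, H2-Q6 at chr17:35424672-35424780, H2-Q7 at chr17:35439017-35439124 and B2m at chr2:122147543-122147643. In the 4 heavy chain promoters printed, the kB element comes first, then the interferon element, which reads TTTCACTTC here, then the module, which ends 12 bases before the transcript start in H2-K1, 75 bases before it in H2-Q4 and H2-Q6, and 36 bases before it in H2-Q7. The B2m promoter has its interferon element, GAAACTGAAA, in front of the kB element. The H2-D1 promoter holds the same 3 elements in the same order as H2-K1. By the letters searched, the H2-T23 promoter holds an interferon element and a CCAAT box and no module. By the same letters, which do not cover all forms of these elements, the Tap1 promoter holds a CCAAT box alone.

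Windows of 250 bases before to 50 bases after the start were searched on both strands in 32817 RefSeq promoters. The module, TGAC followed by 20 or 21 bases and ATTGG, was found in 6 of the 8 class I promoters and in 0.408% of all windows. The class I form of the interferon element, GAAGTGAAA or TTTCACTTC on the other strand, was in 0.506% of all windows, and the general form, GAAA, any 2 bases and GAAA, was in 3.43%. The kB letters, GGGA, any 4 bases and CC, were in 20.7% and ATTGG, which is also the end of the module, was in 37.4%. The letters and the spacing were chosen after the class I promoters had been seen, so the class I counts are a description.

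**Figure D1:**
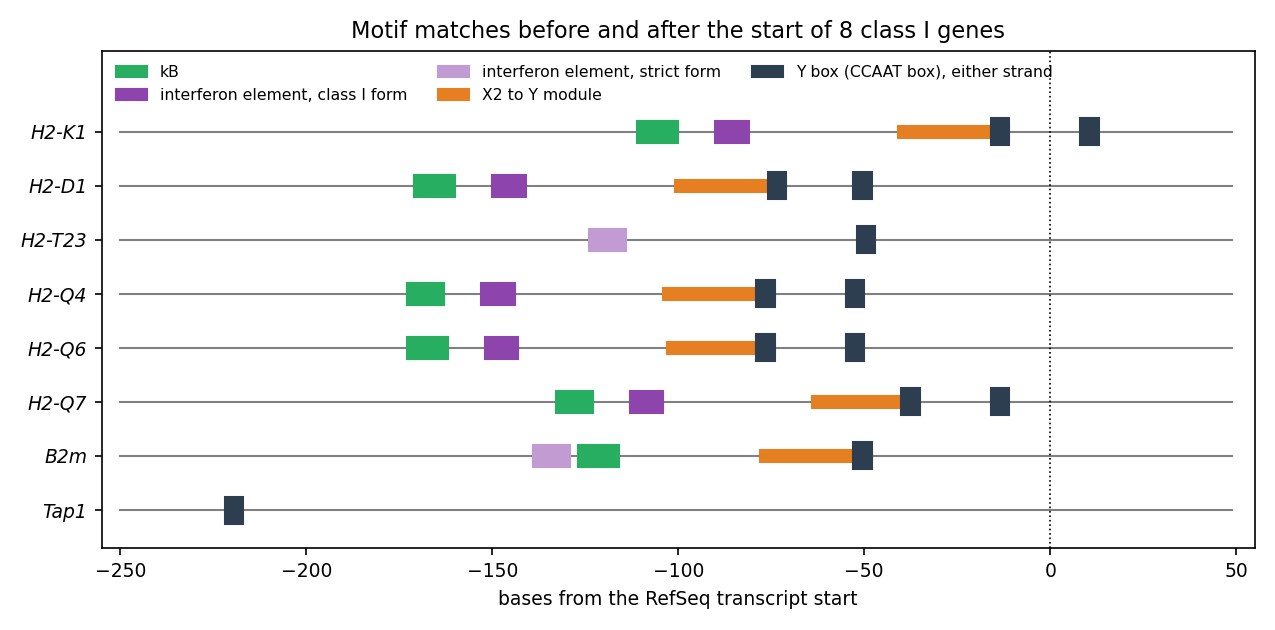
Motif matches in the promoter windows of the 8 class I genes with a RefSeq entry, by distance in bases from the transcript start (horizontal axis, 0 is the start). The kB element, the interferon element and the module follow each other in this order in H2-K1, H2-D1, H2-Q4, H2-Q6 and H2-Q7, while H2-T23 and Tap1 have no module.

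Levels are in FPKM, fragments per kilobase of exon with library size taken into account. The library constants that turn FPKM into reads were 17346315 to 20245576 in ACD and 16916600 to 18583992 in control. The reads so recovered summed to 18525484 to 21487901 in ACD and 16517305 to 18915358 in control. Genes with a value above 0 numbered 23511 to 24194 in ACD and 24982 to 25870 in control libraries. The sums of Hox genes fitted the tissue label. The 6 of the cervical level summed to 105 to 106 FPKM in ACD and 86.8 to 105 FPKM in control. The 5 of lower levels summed to 0.791 to 2.33 FPKM in ACD and 0.863 to 1.85 FPKM in control, with Hoxa11 at 0 in all 6. Within the cervical sum, Hoxc8 had 38.8, 31.5 and 19.7 FPKM in ACD and 10.4, 45.9 and 32.7 FPKM in control. Hoxc9, of the lower levels, ran from 0.195 FPKM in control 1 to 1.91 FPKM in ACD 2. Whether the level of cord taken differed between libraries was not tested. Neuronal markers summed to 786 to 791 FPKM in ACD and 637 to 772 FPKM in control.

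The cords of ACD mice held more class I message than those of control mice. Of the 10 genes, 6 rose (H2-K1, H2-D1, H2-T23, H2-Q4, H2-Q6 and B2m), 0 fell and 4 (H2-Q7, Tap1, Tap2 and Nlrc5) did not pass, at an adjusted p under 0.05 in limma with Benjamini-Hochberg adjustment over 21369 genes. Over all genes tested 386, or 1.81%, were higher and 541, or 2.53%, were lower, 4.34% in either direction. With TPM scaling 208 were higher and 704 lower, and with trends on gene length and GC content removed 909 were higher and 492 lower. The log2 fold change was above 0 for all 10 genes, with a median of 0.66 beside −0.01 over all genes tested. In 9 of the 10 genes every ACD library lay above every control library, which held for 13.1% of all genes tested. With 1 library left out, 3, 3 and 4 genes passed without control 1, 2 and 3, and 1, 0 and 0 without ACD 1, 2 and 3. With limma's variance moderation run without its trend and robust settings 1 gene passed, H2-D1, and the fold changes of all 10 stayed above 0 in every one of these fits.

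**Figure D2:**
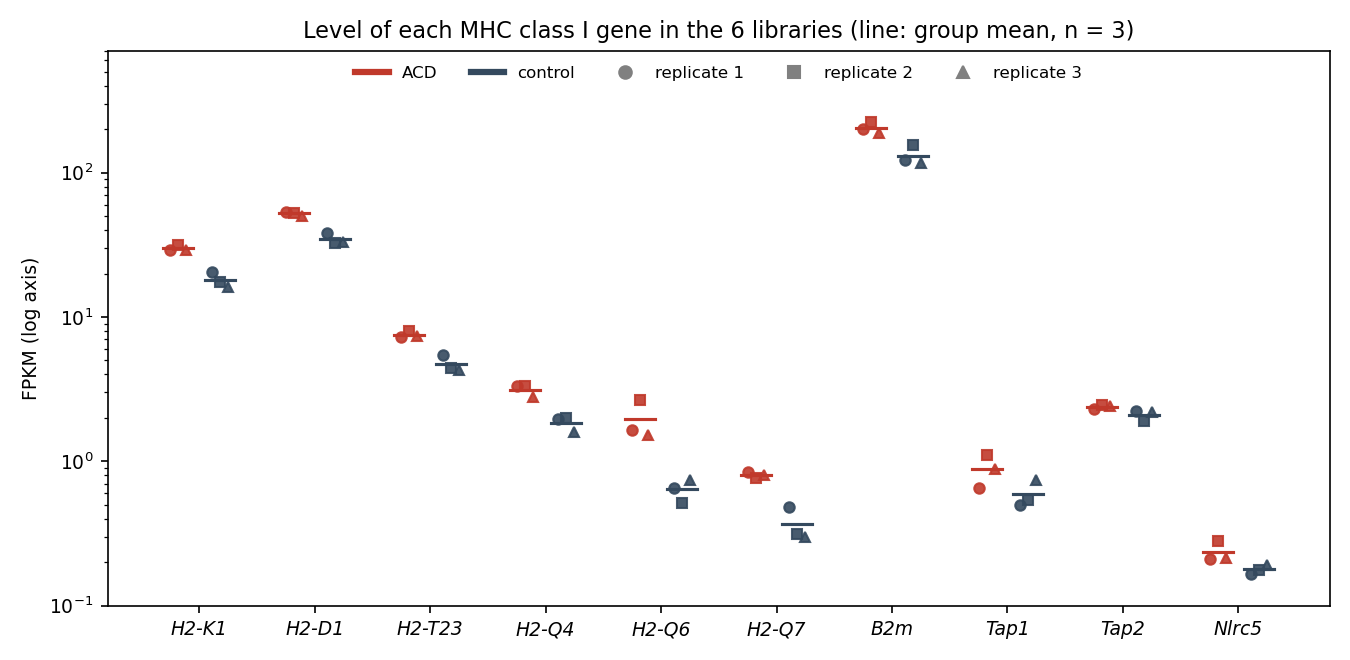
Level of each gene in FPKM on a log axis, with ACD libraries in red to the left of control libraries in blue, symbols for the replicates and a line at the mean of 3. B2m was the highest, at 187 to 225 FPKM in ACD and 116 to 154 FPKM in control, and the groups overlap for Tap1 alone.

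H2-K1 and H2-D1 are the classical heavy chains of C57BL/6 mice, which present peptides to CD8 T cells. H2-K1 (chr17:33996017-34000347, minus strand; GRCm38 for all genes) had 29.0, 31.6 and 29.2 FPKM in ACD cords, against 20.5, 17.6 and 16.1 FPKM in control cords. The lowest ACD cord was thus above the highest control cord, and the ratio of means was 1.66. The mean was 30.0 ± 1.45 FPKM in ACD and 18.1 ± 2.24 FPKM in control (SD, n = 3 each), a log2 fold change of 0.73 (SE 0.097, limma adjusted p = 0.0146). Since this is bulk RNA, more cells of a class I-rich type and more message per cell cannot be told apart, and likewise fewer cells and less RNA per cell.

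H2-D1 (chr17:35262730-35267499, plus strand) stood at 53.8, 52.5 and 50.3 FPKM in ACD cords, against 37.96, 32.7 and 33.4 FPKM in control cords. It was the most abundant heavy chain of the 6 in each library, and its ACD values lay closer together than its control values. Its log2 fold change was 0.59 (SE 0.076, limma adjusted p = 0.0133). H2-K1 and H2-D1 together gave 82.8, 84.1 and 79.4 FPKM in ACD and 58.4, 50.3 and 49.5 FPKM in control. The sum was 1.56 times as high in ACD, with an exact two-sided permutation p = 0.1, the smallest that 3 against 3 allows.

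H2-T23 encodes the heavy chain of Qa-1, which carries leader peptides of other class I chains to the CD94 and NKG2 receptors of natural killer and CD8 T cells. H2-T23 (chr17:36029773-36032855, minus strand) had 7.26, 8.02 and 7.38 FPKM in ACD cords, against 5.42, 4.41 and 4.31 FPKM in control cords. The groups did not overlap, and the log2 fold change was 0.67 (SE 0.10, limma adjusted p = 0.0218), close to those of H2-K1 and H2-D1. Its interval of 0.43 to 0.92 holds both of their fold changes; the differences between genes were not tested.

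The H2-Q genes encode further nonclassical chains: those of the Qa-2 group, to which H2-Q6 and H2-Q7 belong, can be held at the surface by a lipid anchor. H2-Q4 (chr17:35379617-35385290, plus strand) had 3.31, 3.35 and 2.78 FPKM in ACD cords, against 1.96, 2.01 and 1.60 FPKM in control cords. Replicate 3 was the lowest of both groups, and the groups did not overlap. The log2 fold change was 0.73 (SE 0.13, limma adjusted p = 0.0301).

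H2-Q6 (chr17:35424850-35430055, plus strand) had 1.66, 2.68 and 1.52 FPKM in ACD cords, against 0.652, 0.516 and 0.747 FPKM in control cords. ACD 2 stood above the other ACD libraries, with 113 reads beside 60 and 58, and the control libraries had 23, 20 and 27 reads. The log2 fold change was 1.44 (SE 0.24, limma adjusted p = 0.0263) and was 1.21 without ACD 2. This was the highest fold change of the 10, with an interval of 0.87 to 2.02.

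H2-Q7 (chr17:35439155-35443773, plus strand) had 0.838, 0.764 and 0.807 FPKM in ACD cords, against 0.485, 0.315 and 0.297 FPKM in control cords, from 62, 66 and 63 reads and from 35, 25 and 22 reads. The groups did not overlap, but the log2 fold change of 0.98 (SE 0.22) did not pass, with a limma adjusted p of 0.0569. It passed in 3 of the 9 other settings in which it was tested, with adjusted p-values of 0.0196 to 0.119 over those settings.

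Part of the sequence of the H2-Q genes is shared, so the split of reads among them is uncertain. Of the 50-base words in the annotated exons of H2-Q4, H2-Q6 and H2-Q7, 36.4%, 35.0% and 26.5% were also found in another gene. H2-Q6 shared 13.9% of its words with H2-Q7 and 12.3% with H2-Q4, and H2-Q7 shared 14.0% of its words with H2-Q10. H2-K1, H2-D1 and H2-T23 shared 9.63%, 12.8% and 14.5% of theirs with other genes. H2-Q4 shared 15.3% of its words with Gm11131, an antisense gene that covers 19.1% of its exon bases, and reads of the pair cannot be told apart without known strand. Gm11131 was itself at 0.0185 to 0.158 FPKM in ACD and 0.0172 to 0.111 FPKM in control.

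**Figure D3:**
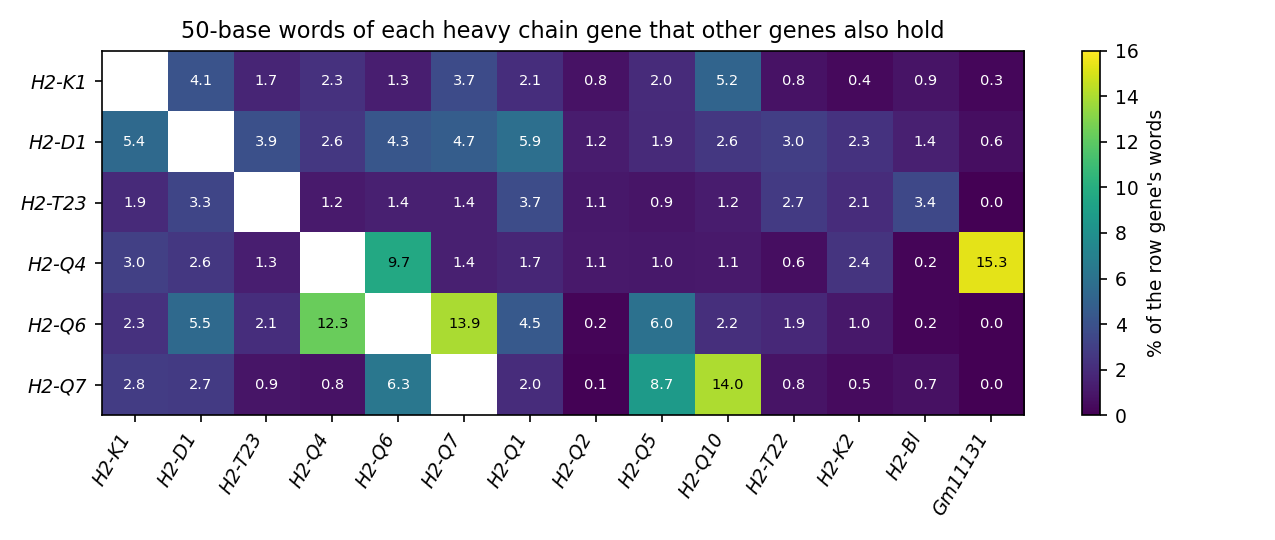
Percent of the 50-base words of each heavy chain gene (rows) that also occur in the exons of another gene (columns), with the gene against itself left white. The H2-Q rows hold the highest values, up to 15.3% for H2-Q4 with Gm11131 and 14.0% for H2-Q7 with H2-Q10, and B2m, not drawn, shared 0%.

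A sum of H2-Q4, H2-Q6 and H2-Q7 depends less on how reads were split among these 3 genes. It does not remove the split, because FPKM is divided by exon length, which was 2596, 2085 and 4265 bases. The sum was 5.81, 6.79 and 5.11 FPKM in ACD and 3.10, 2.84 and 2.64 FPKM in control. It was 2.06 times as high in ACD, with no overlap (exact two-sided permutation p = 0.1, the smallest possible). Reads that belong to H2-Q5 or H2-Q10 are not covered by this sum.

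B2m encodes the light chain that class I heavy chains need in order to fold and to leave the endoplasmic reticulum. B2m (chr2:122147686-122153083, plus strand) had 201, 225 and 187 FPKM in ACD cords, against 122, 154 and 116 FPKM in control cords. Replicate 2 was the highest in both groups, and the groups did not overlap. The mean was 204 ± 19.2 FPKM in ACD and 131 ± 20.5 FPKM in control (SD, n = 3 each), a log2 fold change of 0.65 (SE 0.12, limma adjusted p = 0.0369). It no longer passed in 3 of the 10 other settings with all libraries, namely without a filter, under quantile normalisation and with plain eBayes (adjusted p of 0.00601 to 0.0927 over the 10), and it passed in 1 of the 6 fits with 1 library left out.

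Tap1 and Tap2 encode the subunits of the transporter that brings peptides to the heavy chains. Tap1 (chr17:34187553-34197225, plus strand) had 0.653, 1.10 and 0.888 FPKM in ACD cords, against 0.497, 0.540 and 0.748 FPKM in control cords. ACD 1 was below control 3, so the groups overlapped. The log2 fold change was 0.49 with an interval of −0.08 to 1.06 (limma adjusted p = 0.289), so a change of the size seen for B2m lies within it. Psmb9, the neighbour on the other strand, covers 3.87% of the exon bases of Tap1.

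Tap2 (chr17:34203527-34216321, plus strand) had 2.29, 2.44 and 2.41 FPKM in ACD cords, against 2.24, 1.89 and 2.20 FPKM in control cords. All 3 ACD values were above the control values, ACD 1 and control 1 lying close together. Its log2 fold change was 0.17 with an interval of −0.08 to 0.42 (limma adjusted p = 0.393), which ends below the log2 fold changes of the 6 heavy chains and B2m; the difference from them was not tested. Unstranded reads of Gm15821 and Gm20496, which cover 14.1% and 4.36% of its exon bases from the other strand, would add to Tap2, and both were at or near 0, up to 0.0452 FPKM in ACD and 0.191 FPKM in control for Gm15821.

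NLRC5, a protein of the NOD-like family, is the main transactivator of class I genes and of B2m. Nlrc5 (chr8:94434356-94527272, plus strand) had 0.210, 0.279 and 0.212 FPKM in ACD cords, against 0.167, 0.177 and 0.190 FPKM in control cords. It was the lowest of the 10, with a mean of 32 reads per library, and its ACD values were all above its control values. The log2 fold change of 0.26 did not pass (limma adjusted p = 0.630), and its interval of −0.40 to 0.92 spans both a fall and a rise as large as that of H2-K1.

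**Figure D4:**
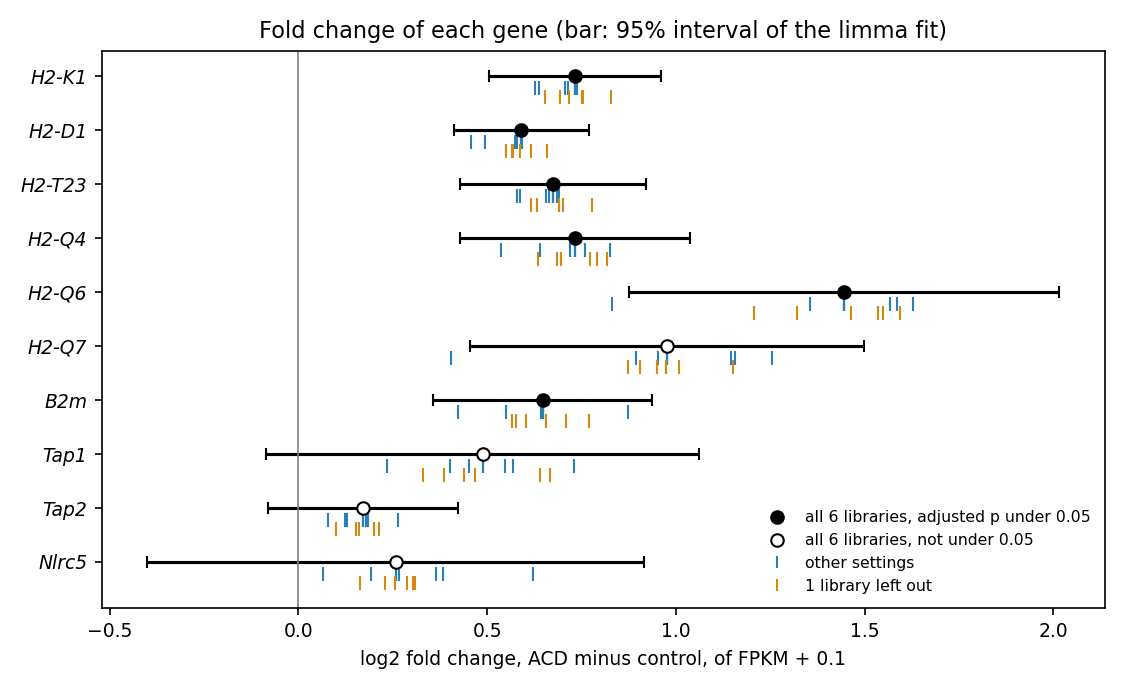
Log2 fold change of each gene, ACD minus control, of FPKM + 0.1, with a bar for the 95% interval of the limma fit and filled points for genes with an adjusted p under 0.05. Ticks below each bar give the fold change under other settings and with 1 library left out; all of them lie above 0 and H2-Q6, at 1.44, lies farthest to the right.

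Against its own mean over the 6 libraries, each gene was set on a common log2(FPKM + 0.1) scale. H2-K1 lay 0.32, 0.45 and 0.33 above its mean in ACD 1, 2 and 3 and 0.18, 0.40 and 0.52 below it in control 1, 2 and 3. Control 1 was the highest control for H2-K1, H2-D1, H2-T23 and H2-Q7, while control 2 was the highest for B2m and H2-Q4. ACD 2 was the highest of the 6 libraries for H2-K1, H2-T23, H2-Q4, H2-Q6, B2m, Tap1, Tap2 and Nlrc5.

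**Figure D5:**
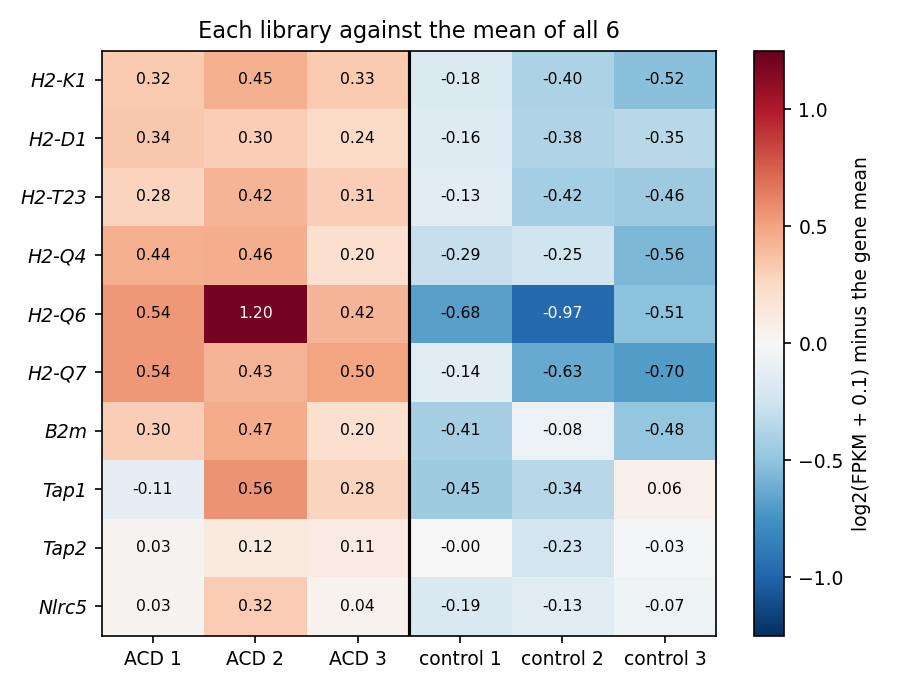
Log2(FPKM + 0.1) of each gene in each library minus the mean of the gene over the 6 libraries, ACD to the left of the line and control to the right, in red above and in blue below the mean. H2-Q6 reaches 1.20 in ACD 2, and Tap1 is the gene with an ACD value below its mean and a control value above it.

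The nearness of 2 genes over the 6 libraries was measured as the Euclidean distance between such centred values. H2-T23 was nearest to H2-K1, at 0.1003, and 0 of the 12142 protein-coding genes ranked that are not among the 10 were nearer. H2-D1 followed at 0.245, with 10 nearer, and H2-Q4 at 0.258, with 12 nearer. B2m lay at 0.422 with 88 nearer, Tap1 at 0.788 with 2697 nearer, and H2-Q6, whose changes are larger, at 1.10 with 9023 nearer. The 5 nearest genes outside the 10 were Ifit3b at 0.179, Cebpzos at 0.198, Pdyn at 0.213, Wbp1l at 0.224 and H2afj at 0.224. Pdyn, the precursor of dynorphins, had 6.07, 6.74 and 7.18 FPKM in ACD and 4.44, 3.77 and 3.81 FPKM in control.

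Ratios within a library were compared for 5 pairs, with exact two-sided permutation tests whose smallest p is 0.1 and Benjamini-Hochberg adjustment over the 5. B2m over H2-K1 plus H2-D1 was 2.42, 2.67 and 2.35 in ACD and 2.09, 3.07 and 2.35 in control (exact p = 1, adjusted 1). The groups overlapped, with a mean of 2.48 ± 0.168 in ACD and 2.51 ± 0.507 in control (SD, n = 3 each). The H2-Q sum over H2-K1 plus H2-D1 was 0.0701, 0.0807 and 0.0643 in ACD and 0.0530, 0.0565 and 0.0535 in control, with no overlap (exact p = 0.1, adjusted 0.25). H2-Q6 over H2-Q7 (exact p = 0.4, adjusted 0.5) and Tap1 over Tap2 (exact p = 0.3, adjusted 0.5) overlapped between the groups.

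Of 17 other class I heavy chains listed, 14 had an identifier and 11 could be tested. In limma 0 were higher and 1 was lower, beside 1.81% higher and 2.53% lower over all genes. At an unadjusted p under 0.05, 0 were higher and 2 lower, and with voom 0 were higher and 1 lower. Here and for the lists below, no share over all genes was taken at an unadjusted p. The voom counts over all genes are given with the dependence on processing. The median log2 fold change was −0.25 beside −0.01 over all genes. The 1 lower gene was H2-Bl, a polymorphic pseudogene in GENCODE, with 1.20, 1.06 and 0.780 FPKM in ACD and 1.79, 1.76 and 2.23 FPKM in control (log2 fold change −0.88, SE 0.19, limma adjusted p = 0.0485). It no longer passed in 11 of the 16 other fits. H2-T22, a nonclassical chain, had 8.39, 7.91 and 7.97 FPKM in ACD and 6.09, 7.42 and 7.68 FPKM in control, and did not pass (adjusted p = 0.287); it and H2-K2, named below, were chosen after their values were seen. H2-K2, a transcribed pseudogene beside H2-K1, averaged 1.55 ± 0.240 FPKM in ACD and 2.37 ± 0.194 FPKM in control (SD, n = 3 each; limma adjusted p = 0.0665). Of the class I-like chains coded outside the MHC, 6 of 9 were tested and 0 passed in limma (1 lower at an unadjusted p under 0.05, 0 with voom), and Mill2 had the smallest p (log2 fold change −0.43, limma adjusted p = 0.224).

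Of the 13 genes of peptide loading and trimming, all tested, 2 rose and 1 fell, beside 1.81% higher and 2.53% lower over all genes, with a median log2 fold change of 0.22. At an unadjusted p under 0.05, 8 were higher and 1 lower, and with voom 3 were higher and 1 lower. Hspa5, the endoplasmic reticulum chaperone BiP, had 101.9, 87.2 and 92.6 FPKM in ACD and 56.5, 50.6 and 56.4 FPKM in control (log2 fold change 0.78, SE 0.083, limma adjusted p = 0.00902). Pdia3, a disulfide isomerase of the loading complex, had 92.0, 84.4 and 80.9 FPKM in ACD and 57.4, 59.2 and 59.6 FPKM in control (log2 fold change 0.54, SE 0.068, limma adjusted p = 0.0127). Both serve the folding of many other proteins too. Lnpep, a peptidase of endosomes, was lower, at 12.02 ± 0.346 FPKM in ACD and 14.7 ± 0.501 FPKM in control (SD, n = 3 each; limma adjusted p = 0.0498), and lost its call in 12 of 16 other fits. Tapbp, which encodes tapasin, the bridge between TAP and the heavy chain, had 9.41, 10.1 and 10.4 FPKM in ACD and 9.90, 7.79 and 9.15 FPKM in control, and did not pass (limma adjusted p = 0.389). Calr, the chaperone calreticulin, averaged 118 ± 10.2 FPKM in ACD and 82.6 ± 20.5 FPKM in control (SD, n = 3 each; limma adjusted p = 0.126), and Erap1, which trims peptides, had a log2 fold change of 0.05 (adjusted p = 0.873), below 0 with TPM scaling.

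Of 7 genes of the immunoproteasome and its PA28 activator, 1 rose and 0 fell in limma, beside 1.81% higher over all genes (3 higher and 1 lower at an unadjusted p under 0.05, 2 and 0 with voom). Psmb10 had 20.5, 20.2 and 20.0 FPKM in ACD and 13.4, 16.7 and 14.4 FPKM in control (log2 fold change 0.45, SE 0.088, limma adjusted p = 0.0390), and lost its call in 9 of the 16 other fits. Psmb8, its partner subunit, had 1.69, 1.86 and 1.58 FPKM in ACD and 0.951, 0.983 and 0.316 FPKM in control. The groups did not overlap, but the log2 fold change of 1.21 (SE 0.37) did not pass (limma adjusted p = 0.112). Psmb9 averaged 0.665 ± 0.0953 FPKM in ACD and 0.551 ± 0.0998 FPKM in control (SD, n = 3 each) and did not pass (adjusted p = 0.550).

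The factors that act on class I promoters gave 0 higher and 1 lower of 19 in limma, beside 1.81% higher and 2.53% lower over all genes. At an unadjusted p under 0.05, 3 were higher and 1 lower, and with voom 1 and 1. The count of higher factors moved in 6 of the 16 other fits. The median log2 fold change was 0.005. Crebbp, an acetyltransferase that serves many promoters, fell to 2.31 ± 0.160 FPKM in ACD, against 3.49 ± 0.149 FPKM in control (SD, n = 3 each; log2 fold change −0.57, limma adjusted p = 0.0245), a call lost in 6 of the 16 other fits. Irf1, an interferon-induced activator of class I genes, had a log2 fold change of 0.005 (adjusted p = 0.994), whose sign changed with the setting. Irf7, chosen after its values were seen, did not pass, with a log2 fold change of 1.01 (limma adjusted p = 0.0501). Its ACD values were all above its control values. Of the interferons and their receptors, 10 of 13 were tested and 0 passed in limma (2 lower at an unadjusted p under 0.05, 0 with voom); Ifng, Ifnb1 and Ifna4 were at 0 in all 6 libraries, which at a limit of 3 reads and at their exon lengths allows up to 0.137, 0.236 and 0.316 FPKM, for counting error only. Jak2 had the smallest p of this list (log2 fold change −0.18, limma adjusted p = 0.184).

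Of 28 interferon-stimulated genes, 26 were tested, 6 rose and 0 fell, beside 1.81% higher over all genes. In 20 of the 26 every ACD library lay above every control library, beside 13.1% of all genes tested. The list's median log2 fold change was 0.67, beside 0.66 for the 10 class I genes. Ifitm3, a membrane protein that limits virus entry, averaged 44.2 ± 3.03 FPKM in ACD and 20.4 ± 3.99 FPKM in control (SD, n = 3 each; log2 fold change 1.12, limma adjusted p = 0.0121). Usp18, which removes ISG15 from proteins, had 1.28, 1.17 and 1.51 FPKM in ACD and 0.551, 0.521 and 0.537 FPKM in control (log2 fold change 1.15, limma adjusted p = 0.0180). Isg15 averaged 7.52 ± 1.73 FPKM in ACD and 2.80 ± 0.763 FPKM in control (SD, n = 3 each; log2 fold change 1.40, limma adjusted p = 0.0274), and Ifit3b 4.53 ± 0.249 FPKM in ACD and 2.93 ± 0.227 FPKM in control (log2 fold change 0.62, limma adjusted p = 0.0207). At an unadjusted p under 0.05, 18 were higher and 0 lower, and with voom 12 were higher and 0 lower. No share over all genes was taken at that unadjusted p. The count of 6 was 0 without ACD 3, 2 without ACD 2 and 3 without control 1.

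The receptors that read class I molecules were low. Of 16, 7 were tested and 0 passed in limma, beside 1.81% higher and 2.53% lower over all genes. At an unadjusted p under 0.05 1 was higher and with voom 1, Cd8b1, and 9 were under the filter of 0.1 FPKM. Cd8a, the CD8 alpha chain, had 0.0793, 0.0679 and 0.135 FPKM in ACD and 0.0163, 0.0444 and 0.0159 FPKM in control, from a mean of 4 reads per library, and was not tested. Cd8b1, the CD8 beta chain, had 0.350, 0.233 and 0.111 FPKM in ACD and listed values of 0, 0 and 0.0389 FPKM in control, a mean of 3.33 reads, and did not pass (limma adjusted p = 0.119). Cd8b1 reached the filter through its ACD values, with a control mean of 0.0130 FPKM. Klrd1, which encodes CD94, the partner of NKG2 receptors for Qa-1, was at 0 in the 3 ACD libraries and at 0, 0.210 and 0.0450 FPKM in the control libraries. Pirb, an inhibitory receptor of myeloid cells and neurons that binds class I, averaged 0.202 ± 0.0632 FPKM in ACD and 0.256 ± 0.130 FPKM in control (SD, n = 3 each; limma adjusted p = 0.816).

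Class II genes, which serve CD4 T cells and are found mainly on professional presenting cells, gave 1 higher and 0 lower of 11 tested in limma, beside 1.81% higher over all genes, with a median log2 fold change of 0.04. At an unadjusted p under 0.05, 4 were higher and 0 lower, and with voom 2 were higher and 0 lower. The 1 was H2-DMa, part of the class II peptide exchanger, with 4.90 ± 0.347 FPKM in ACD and 3.21 ± 0.247 FPKM in control (SD, n = 3 each; log2 fold change 0.59, limma adjusted p = 0.0234), a call lost in 6 of the 16 other fits. H2-Aa had 2.68, 2.40 and 3.12 FPKM in ACD and 4.29, 2.84 and 1.48 FPKM in control, Cd74, the invariant chain, had 7.24, 7.497 and 8.14 FPKM in ACD and 14.8, 7.06 and 4.38 FPKM in control. Control 1 was the highest and control 3 the lowest for both, and neither passed (limma adjusted p = 0.957 and 0.985). H2-Ab1 (log2 fold change −0.36, adjusted p = 0.548) and Ciita, the class II transactivator (−0.54, adjusted p = 0.351), did not pass either. H2-K1 plus H2-D1 over H2-Aa plus H2-Ab1 plus H2-Eb1 was 8.26, 8.60 and 7.87 in ACD and 3.47, 4.74 and 7.68 in control (exact permutation p = 0.1, adjusted 0.25).

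Marker sums of cell types that can carry class I, or that dissection can bring along, were set beside these values. Of the 8 lists given here, the sums of 2, border macrophages with monocytes and red cells, did not overlap between the groups. Dendritic cell markers, not among the 8, were lower without overlap, at 4.24 to 4.63 FPKM in ACD and 4.76 to 6.14 FPKM in control. The neuronal sums given above did not overlap either, and were higher in ACD. No sum was tested. The limma calls of these lists stand beside 1.81% higher and 2.53% lower over all genes tested. Microglial markers summed to 102 to 110 FPKM in ACD and 83.8 to 102 FPKM in control, and 1 of 8, Tmem119, rose (limma adjusted p = 0.0394). Sall1 and Siglech had log2 fold changes of −0.28 and −0.02, P2ry12 had 0.03, and the rest of the microglial list was above 0. Markers of border macrophages and monocytes summed to 9.34 to 13.1 FPKM in ACD and 4.41 to 8.27 FPKM in control, and 0 of 8 passed. Endothelial markers summed to 52.8 to 84.0 FPKM in ACD and 67.7 to 75.2 FPKM in control, and 0 of 8 passed. T cell markers summed to 1.99 to 3.59 FPKM in ACD and 1.56 to 2.92 FPKM in control, with 5 of 8 under the filter. Markers of natural killer cells summed to 0.632 to 1.67 FPKM in ACD and 0.187 to 0.740 FPKM in control, with 4 of 6 under it. Red cell genes summed to 481 to 772 FPKM in ACD and 100.1 to 389 FPKM in control, neutrophil genes to 94.8 to 123 FPKM in ACD and 24.6 to 110 FPKM in control, and 0 of 5 and 0 of 6 passed. Markers of meningeal fibroblasts summed to 31.6 to 40.4 FPKM in ACD and 19.8 to 37.5 FPKM in control, with a median log2 fold change of 0.43, and 0 of 5 passed. At an unadjusted limma p under 0.05, 4 of 8 border macrophage, 3 of 5 meningeal fibroblast, 3 of 5 red cell and 1 of 6 neutrophil genes were higher and 2 of 8 endothelial genes were lower, and with voom 1, 2, 2 and 1 were higher and 1 was lower. Likewise 3 of 8 microglial, 1 of 3 tested T cell and 2 of 2 tested natural killer cell genes were higher at that p. With voom 1 of each was higher. No share over all genes was taken at that p. The T cell gene, Cd8b1, and the natural killer cell gene Nkg7 had control means of 0.0130 and 0.0818 FPKM. They reached the filter of 0.1 FPKM through their ACD values, so the filter favoured higher counts in these lists. Under the filter, Ncr1 and Prf1 had lower means in ACD and Klrb1c and Gzmb had higher means. In none of these 8 lists was a marker at 0 in all 6 libraries. The part of these cell types in the rise of the class I genes was not tested.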

How the data were processed

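The deposited values are FPKM, 1 table per library, as the values themselves show. Per the submitters' processing notes, the tools were DESeq2 1.16.1, featureCounts 1.5.0-p3 and HISAT2 2.0.5 and the build was mm10, with no role for any of them; the kit, annotation release and use of strand: not given in the sources used here. The 10 genes, the lists and the alternatives were chosen with earlier results of these data known. Symbols, types, exon lengths and coordinates came from GENCODE M21, whose GRCm38 coordinates are those of mm10 and which held 54495 of 54532 identifiers. The 21369 genes whose mean level over the libraries reached 0.1 FPKM were fitted in R 4.3.3 by limma 3.58.1, with trend and robust set in eBayes, on log2(FPKM + 0.1), two-sided, with Benjamini-Hochberg adjustment and a threshold of 0.05; intervals are 95% intervals of this fit. Fold changes are on that scale, ACD minus control, and understate changes of low genes. The fit was also run on simulated counts with known changes. These had the same spread setting for every gene, so they do not give error rates for these libraries. Sums and ratios were compared with exact permutation tests in Python 3.11.15 with scipy 1.17.1.

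Multiplied by exon length and by 1 constant for each library, the FPKM became whole reads (tolerance 0.05) for 96.8% of values above 0. They did so for 9 of the 10 genes, H2-K1 being the exception. The constants and the sums of recovered reads are given above. Limits from a count of 0 cover counting error only. Named genes are the 10, from each list the 4 members with the smallest p among those that passed (where none passed, the member with the smallest p), a fixed set named whatever the result (Tapbp, Psmb8, Psmb9, Erap1, Calr, Irf1, H2-Aa, H2-Ab1, Cd74, Ciita, Cd8a, Klrd1 and Pirb, and 1 gene not reported here), and the 5 protein-coding genes nearest to H2-K1 with a mean of at least 1 FPKM. Alternatives were other pseudocounts, filters, scalings, voom on recovered reads, a length and GC correction, plain eBayes, a replicate block and leaving out each library. No label dates the dissections or libraries, so handling and group cannot be told apart.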

Additional observations from a re-analysis of the deposited data

How the results depend on the processing

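The 10 class I genes kept a log2 fold change above 0 in every alternative in which they were tested. The number called higher, 6, was 6 with pseudocounts of 0.01 and 1, with a filter at a mean of 1 FPKM, with TPM scaling and with quantile normalisation, 5 without a filter, 7 with voom on recovered reads and 7 with length and GC trends removed. It was 1 with eBayes without trend or robust, and 0 to 4 with 1 library left out, where an arm has 2 libraries. Replicate numbers are shared by the groups, and no label names a pairing. Over all genes, same-numbered libraries did not deviate together (correlations of −0.0277, 0.0146 and 0.00345 over 21369 genes). A value taken over all genes cannot show whether part of the genes shared a batch. With the replicate block 2 class I genes and 181 of all genes were called, 86 higher and 95 lower.

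Over all genes, 927 were called, 386 higher and 541 lower. The counts were 556 (221 higher, 335 lower) without a filter, 1538 (648 higher, 890 lower) with voom, 568 (231 higher, 337 lower) with quantile normalisation, 420 (96 higher, 324 lower) with eBayes without trend or robust, 1401 (909 higher) with length and GC trends removed, and 208 higher with TPM scaling, where the median over all genes was −0.10. With 1 library left out, 192 to 736 were called, 65 to 378 higher and 127 to 358 lower. The cause of these moves was not tested, apart from the fewer libraries left.

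The sums of H2-K1 with H2-D1 and of the 3 H2-Q genes stayed higher in ACD, at log2 ratios of 0.54 and 0.94 with TPM scaling, and of 0.60 to 0.72 and 0.93 to 1.14 with 1 library left out. Signs changed for genes near 0. Irf1 was −0.0033 with a pseudocount of 1, −0.084 with TPM scaling and −0.023 with length and GC trends removed. TPM scaling gave −0.046 for Erap1 and −0.049 for H2-Aa, and quantile normalisation 0.18 for Pirb. With 1 library left out, the log2 fold change of Irf1 was −0.19 to 0.23, of Erap1 −0.034 to 0.16, of H2-Aa −0.35 to 0.39, of Pirb −0.51 to 0.059 and of Cd74 −0.42 to 0.45. Low depth limits Nlrc5, H2-Q7 and H2-Q6, with means of 32, 45.5 and 50.2 reads per library, and the CD8 chains, with 4 and 3.33.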
